A study of Mus musculus with 6 samples.

Results

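The contractile unit of the heart was described here through 37 genes for sarcomere and Z-disc proteins in mouse ventricle. They were taken by symbol from a deposited table of 24239 rows, and all 37 were found with a value in every mouse. The roles follow the order of the sarcomere, namely thick filament (4 genes), thin filament (8), titin and M-band (5) and Z-disc (13). Intermediate filament and costamere genes (3) and genes for assembly and quality control (4) complete the set. The level is FPKM, fragments per kilobase of transcript scaled to library size, so that genes of unlike length can be set side by side. It does not correct for differences in RNA makeup between mice, and its sum ran from 658676.6 (pacing 3) to 756507.4 (sham 3).

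Ventricles came from male C57BL/6 mice aged 8 to 10 weeks, 3 after a sham intervention without pacing and 3 after atrial pacing over 8 days. Pacing used a bipolar catheter in the esophagus close to the atria, with a cycle length of 120 ms for 3 min, then 80 ms for 45 min, then 120 ms for 3 min. Daily sessions filled 5 days, then 2 days were free, then 3 more sessions followed. The question is how transcript levels in the ventricle differ between paced and sham mice. Neither group carries a transgene by the labels, and the labels give no batch.

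In the sarcomere, myosin thick filaments pull on actin thin filaments that are anchored in the Z-disc, while titin spans from the Z-disc to the M-band and acts as a molecular spring. Troponin and tropomyosin switch the thin filament on with calcium, and myosin light chains and myosin binding protein C tune the force. The Z-disc also holds scaffold proteins with PDZ and LIM domains, and its link to desmin filaments and to the costamere carries force to the cell membrane.

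In paced ventricles most of these genes lay slightly lower than in sham ventricles. The log2 fold change (pacing minus sham of log2(FPKM + 1), which understates the change of low genes) was negative for 31 of 37, against 51.8% of all 11994 genes tested. It was positive for 6 of 37, against 48.2%. Abundant genes leaned the same way: among the 3453 other genes whose FPKM averaged 20 or more, 62.7% were negative (median -0.04), against 30 of the 33 members at that level (median -0.13). The median was -0.12 over the members and -0.01 over all genes tested. Without sham 1 the members' median was -0.21 with 33 negative, and without sham 2 it was -0.063 with 22 negative and 15 positive. The lowest values, near -0.37, were those of the ventricular light chain gene Myl2, of Mybpc3, of the calcineurin-binding Myoz2 and of Pdlim1. Pdlim3 went the other way, with the highest log2 fold change of the 37 (0.68). The direction of the set depends on the scale: 25 of 37 were negative after rescaling FPKM to the same sum. Relative to 10 cardiomyocyte reference genes that are no members (among them Myh6, Actc1, Tnnt2 and Tnni3), 12 of 37 were, while the median of all genes tested moved to 0.19. Against the median of all genes tested, the members' median lay lower by 0.12 on the deposited scale, by 0.11 after rescaling to the same sum and by 0.05 after quantile normalization (differences of -0.12, -0.11 and -0.05).

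No member passed the test across all genes. In limma with Benjamini-Hochberg adjustment 0 of 37 members reached an adjusted p under 0.05 in either direction, and neither did any of the genes tested (0% higher, 0% lower), and the lowest adjusted p of a member was 0.39. At an unadjusted p under 0.05, 7 members lay lower, where 3.69% of all genes did, and 1 lay higher, where 5.17% did. The 3 paced mice were all below the 3 sham mice in 10 members, against 6.97% of all genes, and all above them in 1, against 6.24%. These counts vary with single mice: without sham 1 they were 16 lower at an unadjusted p and 19 separate lower. At an unadjusted p 2 members were lower without sham 2, pacing 1 or pacing 3, 4 without sham 3 and 5 without pacing 2. The background moved as well, since 733 of all genes were lower at an unadjusted p without sham 1, against 442 with all mice. It was 361 without sham 2, 315 without sham 3, 295 without pacing 1, 346 without pacing 2 and 305 without pacing 3. Groups separate more easily when a mouse is left out, so the 19 cannot be set against the 10 or the 6.97%. The split is 2 higher and 5 lower at an unadjusted p after rescaling to the same sum and 3 and 0 relative to the cardiomyocyte reference genes. Over all genes tested, 620 were higher and 442 lower at an unadjusted p under 0.05, but 969 and 148 after rescaling, and 2215 and 12 relative to the reference genes. In the authors' deposited table the call was higher for 1 member (at a q under 0.05) and lower for 0, where that table calls 1.23% of its rows higher and 0.152% lower. Since tissue RNA was measured, fewer cardiomyocytes and less RNA per cardiomyocyte cannot be told apart.

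**Figure D1:**
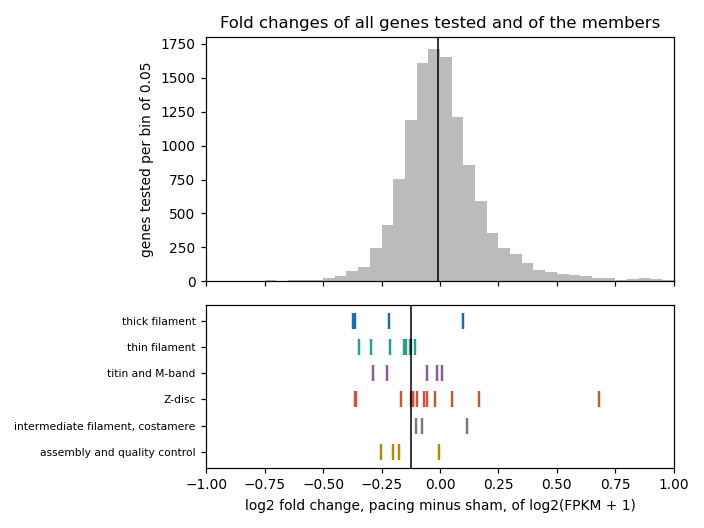
Upper panel: number of genes tested in each bin of 0.05 of the log2 fold change (pacing minus sham), with values between -1 and 1 shown and the median of -0.01 as a line. Lower panel: the 37 members as ticks in 6 roles, with their median of -0.12 as a line; most ticks lie left of 0 on the deposited scale (12 of 37 relative to the reference genes) and Pdlim3 stands alone at 0.68.

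The libraries were not alike in tissue makeup. The effective depth was 6224000 to 8840000 fragments, so that an FPKM of 1 on 2 kb stands for 12.45 to 17.68 fragments, and no 2 libraries shared more than 0.0135% of their values. Of the ventricular markers, Irx4 stood at 13.1 to 19.71 FPKM in sham and 11.45 to 12.26 in paced mice, Lbh at 251.5 to 349.6 and 240.2 to 284.2, and Irx5 and Hey2 at 1.949 to 4.815 in all mice. Summed FPKM of 10 cardiomyocyte genes, which atrium expresses as well, was 57955 to 70547 in sham and 56992 to 59734 in paced mice. Atrial cardiomyocyte genes (8 of 8 tested with a positive log2 fold change, none with separate groups) had a summed FPKM of 12810.3 (sham 1), 452.5 (sham 2), 5375 (sham 3), 5822 (pacing 1), 14867 (pacing 2) and 10639.6 (pacing 3). Sham 1 thus held as much atrial transcript as the paced mice, and sham 2 hardly any. Bmp10 of that list had a lower mean FPKM in paced (27.86) than in sham mice (35.53), and a log2 fold change of -0.35 in the authors' comparison. Its positive sign here rests on sham 2, at 0.2203 against 67.76 and 38.61 in sham 1 and 3. Smooth muscle genes (7 of 9 with a positive log2 fold change, 5 of 9 with every paced mouse above every sham mouse) summed to 134.6 to 202.2 in sham and 208.4 to 267.6 in paced mice. Of 15 skeletal muscle genes 4 were abundant enough to test. Fast myosin genes Myh1, Myh2 and Myh4 reached at most 0.0221, 0.0217 and 0.0421 FPKM in any mouse. The sum of that list (63.58 to 257.4) was mostly Myl1, at 54.24 to 245.8. Lung transcripts stood at 313.2 and 1718 summed FPKM in pacing 2 and pacing 3 and at 0.46 to 4.96 in the other mice. Adipocyte, fibroblast and macrophage genes had a positive log2 fold change in 7 of 7 each (medians 2.71, 0.46 and 0.31; 4, 2 and 0 with every paced mouse above every sham mouse). Erythrocyte genes had one in 3 of 4 (median 1.02), and endothelial genes in 0 of 6 (median -0.18). The part of these differences in the results below was not tested.

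**Figure D2:**
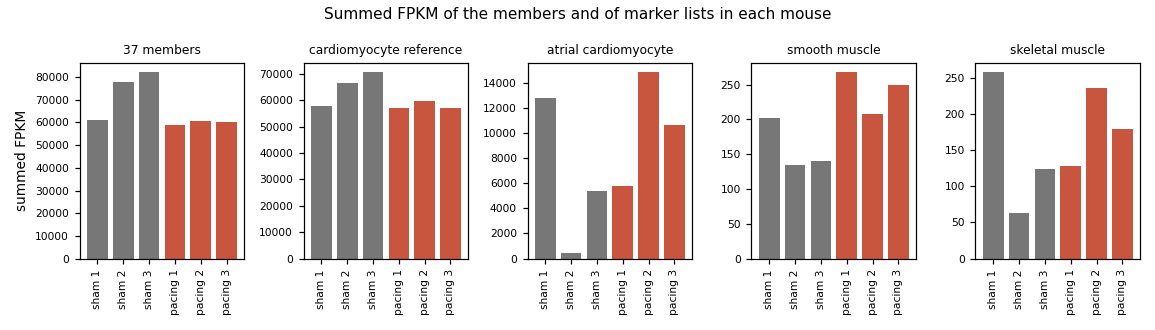
Summed FPKM in each of the 6 mice (grey sham, red pacing; 1 bar per mouse, axes from 0) for the 37 members and for marker lists of cardiomyocytes, atrial cardiomyocytes, smooth muscle and skeletal muscle. Sham 1 is close to the paced mice in the member sum (61253.1 against 59051.5 to 60657.7), while sham 2 has the lowest atrial sum.

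The 37 members took up 9.11% (sham 1), 10.97% (sham 2) and 10.9% (sham 3) of all FPKM, against 8.73%, 8.82% and 9.16% in the paced mice. The share in sham 1 was no higher than in pacing 3, whereas sham 2 and 3 exceeded all paced mice. This sum is dominated by the most abundant member, as Myl2 alone held 4.0% to 5.21% in sham and 3.74% to 4.04% in paced mice. Myl2, Tpm1, Myl3, Tnnc1, Tcap and Myoz2 were the most abundant members by FPKM, and Pdlim3, Myot, Obsl1 and Synm the least. By mouse, sham 2 had the highest of the 6 levels in 21 members, and pacing 3 the lowest in 16. Sham 1 was the lowest of the sham mice in 30 of 37. The spread was wider in sham: the coefficient of variation was larger in sham than in paced mice for 29 of 37 members, with medians of 13.0% and 7.63%.

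**Figure D3:**
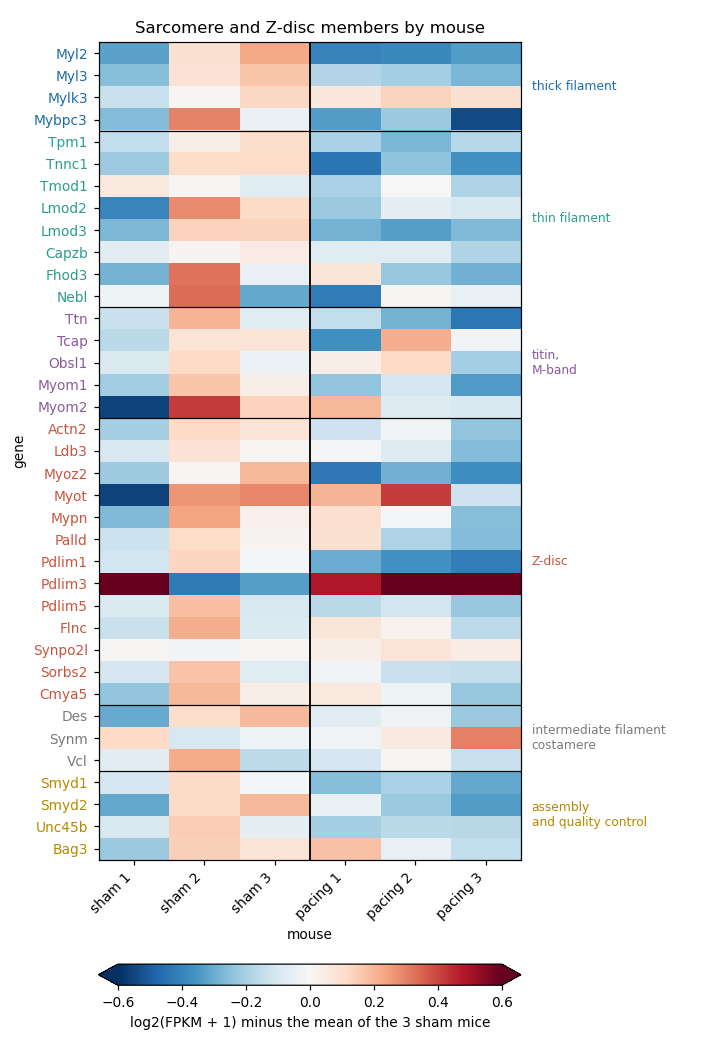
Each row is a member and each column a mouse; the colour gives log2(FPKM + 1) minus the mean of the 3 sham mice, from -0.6 (blue) to 0.6 (red), with values beyond shown in the end colours. Sham 1 is blue in most rows, as the paced mice are, and Pdlim3 is red in sham 1 and in all 3 paced mice.

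Upstream stretches of 4 genes are shown as examples: Pdlim3, which stood higher, and Pdlim1, Myoz2 and Tnnc1, which had separate groups and an unadjusted p under 0.05. Smyd1 and Ttn met the same rule and are not shown. Each stretch gives the 250 bases before the RefSeq start in build GRCm38.p6, 5′ to 3′ on the strand of the gene. They lie at chr8:45885237-45885486 (plus strand), chr19:40271617-40271866 (minus), chr3:123034988-123035237 (minus) and chr14:31208062-31208311 (plus). Capitals mark matches to TATAAA, to the outer letters of the site of MEF2 factors (CTA and TAG around 4 free bases), to the CArG box of serum response factor, or to CATTCC, the core of the M-CAT element of TEAD factors, on either strand; matches of different motifs may overlap.
Pdlim3: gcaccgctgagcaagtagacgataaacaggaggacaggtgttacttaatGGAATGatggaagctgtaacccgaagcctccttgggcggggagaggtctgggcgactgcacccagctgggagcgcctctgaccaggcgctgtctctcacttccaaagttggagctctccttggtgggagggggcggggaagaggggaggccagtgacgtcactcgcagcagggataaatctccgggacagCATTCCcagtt
Pdlim1: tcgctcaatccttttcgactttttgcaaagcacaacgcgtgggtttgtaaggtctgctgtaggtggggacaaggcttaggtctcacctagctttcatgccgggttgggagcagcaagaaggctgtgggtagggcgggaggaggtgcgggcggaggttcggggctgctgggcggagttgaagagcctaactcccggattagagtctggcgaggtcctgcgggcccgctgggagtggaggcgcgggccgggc
Myoz2: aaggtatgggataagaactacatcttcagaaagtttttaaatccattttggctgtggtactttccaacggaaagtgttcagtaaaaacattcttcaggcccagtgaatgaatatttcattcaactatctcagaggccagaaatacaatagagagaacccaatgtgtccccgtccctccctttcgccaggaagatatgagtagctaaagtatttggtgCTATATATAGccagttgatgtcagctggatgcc
Tnnc1: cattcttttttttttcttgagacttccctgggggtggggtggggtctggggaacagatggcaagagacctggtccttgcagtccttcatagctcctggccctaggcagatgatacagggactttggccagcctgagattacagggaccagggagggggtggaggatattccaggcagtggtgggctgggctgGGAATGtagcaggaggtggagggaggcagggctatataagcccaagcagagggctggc
Myoz2 holds the MEF2 letters, Pdlim3 holds CATTCC in both orientations, Tnnc1 holds it on the other strand, and the stretch of Pdlim1 has none of these letters. Among the 29 members with a RefSeq start within 50 bases of the deposited one, the MEF2 letters were found in 6 (Flnc, Mybpc3, Myoz2, Obsl1, Synpo2l and Ttn), where 3.2% of all 32851 stretches of this length hold it. The CArG box was found in 4 (Ldb3, Myl3, Myom1 and Vcl), where 1.47% hold it. CATTCC was in 7 and TATAAA in 2, where 12.64% and 12.37% hold them. A match is a description of the letters and not of a bound site. Of the 6 members with the MEF2 letters, Synpo2l had a positive and the other 5 a negative log2 fold change, where 31 of all 37 members had a negative one.

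Thick filament genes lay lower in 3 of 4, with a median log2 fold change of -0.29. Myl2, the regulatory light chain of ventricular myosin, stood at 26899, 35845 and 39377 FPKM in the sham mice, numbered 1 to 3, and at 25481, 25712 and 26627 in the paced mice. All paced values were below all sham values, but sham 1 was above the highest paced mouse by a small margin. The groups overlapped after rescaling to the same sum and relative to the reference genes. The means were 34040.3 ± 6432 and 25939.8 ± 606 (SD, n = 3 each; log2 fold change -0.37, SE 0.17, limma adjusted p = 0.577). Myl3, the essential light chain, had means of 10108 ± 1514 and 8634 ± 311 with overlapping groups. Myl2 was 3.20 to 3.50 times the FPKM of Myl3 in sham and 2.87 to 3.21 times in paced mice. Mybpc3, cardiac myosin binding protein C, stood at 903.1, 1329 and 1052 in sham and 857.1, 926.3 and 744.5 in paced mice. Pacing 2 overlapped with sham 1 there (log2 fold change -0.36, SE 0.15, limma adjusted p = 0.552). Mylk3, the kinase that phosphorylates the regulatory light chain in heart, was the exception, at 250.4, 277.4 and 299.7 in sham and 287.6, 301.9 and 293.4 in paced mice. Its groups overlapped through sham 3 (log2 fold change 0.10, SE 0.09, limma adjusted p = 0.793), and they were separate, with pacing higher, after rescaling to the same sum or relative to the cardiomyocyte reference genes (log2 fold change 0.29 in the latter).

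All 8 thin filament genes lay lower, with log2 fold changes from -0.35 to -0.11 and a median of -0.15. Relative to the cardiomyocyte reference genes 3 of them, Tpm1, Tnnc1 and Lmod3, stayed negative, and the median was 0.05. Tnnc1, cardiac troponin C and the calcium sensor of the filament, stood at 4473, 5617 and 5616 FPKM in sham and 3839, 4407 and 4045 in paced mice. The 3 paced mice lay below the 3 sham mice, with pacing 2 close to sham 1. The means were 5235 ± 660 and 4097 ± 288 (SD, n = 3 each; log2 fold change -0.35, SE 0.13, limma adjusted p = 0.51), and the groups stayed separate after rescaling to the same sum and relative to the reference genes. Tpm1, alpha-tropomyosin, which lies along actin and blocks myosin sites, stood at 11805, 13466 and 14099 in sham and 11428, 10822 and 11626 in paced mice, again with separate groups (log2 fold change -0.21, SE 0.12, limma adjusted p = 0.67). Its groups overlapped after rescaling to the same sum and relative to the reference genes. Capzb, a subunit of the protein that caps the barbed end of actin at the Z-disc, stood at 165.2, 174.4 and 178.3 in sham and 164, 163.8 and 152.3 in paced mice. Its groups were separate by about 1 unit between sham 1 and pacing 1, and they too overlapped on both of these scales.

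The pointed end of the thin filament is set by leiomodins, which lengthen it, and by tropomodulin, which caps it. Lmod3 stood at 52.88, 70.63 and 70.28 FPKM in sham and 52.39, 50.73 and 53.05 in paced mice. The paced mice lay close together, and sham 1 lay among them (log2 fold change -0.29, SE 0.12, limma adjusted p = 0.54). Lmod2 stood at 325.5, 521.2 and 464.3 and at 367.5, 411.7 and 400.4, and Tmod1 had means of 107.9 ± 4.9 and 98.77 ± 7.54 (SD, n = 3 each), both with overlap. Lmod1, the leiomodin of smooth muscle and no member, stood at 1.48 to 1.83 in sham and 2.87 to 3.92 in paced mice. Nebl, nebulette, had the lowest level of the thin filament members, at 39.38, 50.8 and 32.25 in sham and 29.76, 40.3 and 38.81 in paced mice. Its direction turned without sham 2 (log2 fold change 0.01) and relative to the reference genes (0.04). The formin Fhod3 had means of 66.49 ± 14.6 and 59.38 ± 8.41.

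Ttn, titin, lay lower in the paced mice, at 28.78, 36.52 and 30.07 FPKM in sham and 28.45, 25.79 and 23.15 after pacing. The groups did not overlap, though sham 1 and pacing 1 were less than 1 unit apart (log2 fold change -0.29, SE 0.11, limma adjusted p = 0.54). They overlapped after rescaling to the same sum and relative to the reference genes (log2 fold change -0.09 in the latter). Tcap, telethonin, which joins the ends of titin molecules in the Z-disc, stood at 3047, 3610.3 and 3615 in sham and 2641, 3971 and 3374 in paced mice. Pacing 1 had the lowest and pacing 2 the highest of its 6 values, and its log2 fold change of -0.06 turned sign under 3 other scalings and without pacing 1. At the M-band, where thick filaments are cross-linked, Myom1 (myomesin) had means of 315.2 ± 41.1 and 268.5 ± 22.4 and Myom2 (M-protein) of 327.9 ± 105 and 319 ± 37.1 (SD, n = 3 each). Myom2 was lowest in sham 1, at 214.1, against 422.5 and 347 in sham 2 and 3. Its log2 fold change of 0.01 was -0.27 without sham 1. Obsl1, an obscurin-like linker, stood at 14.24, 16.55 and 14.78 in sham and 15.6, 16.57 and 13.04 in paced mice, with overlapping groups and a log2 fold change of -0.01. The median of these 5 genes was -0.06.

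**Figure D4:**
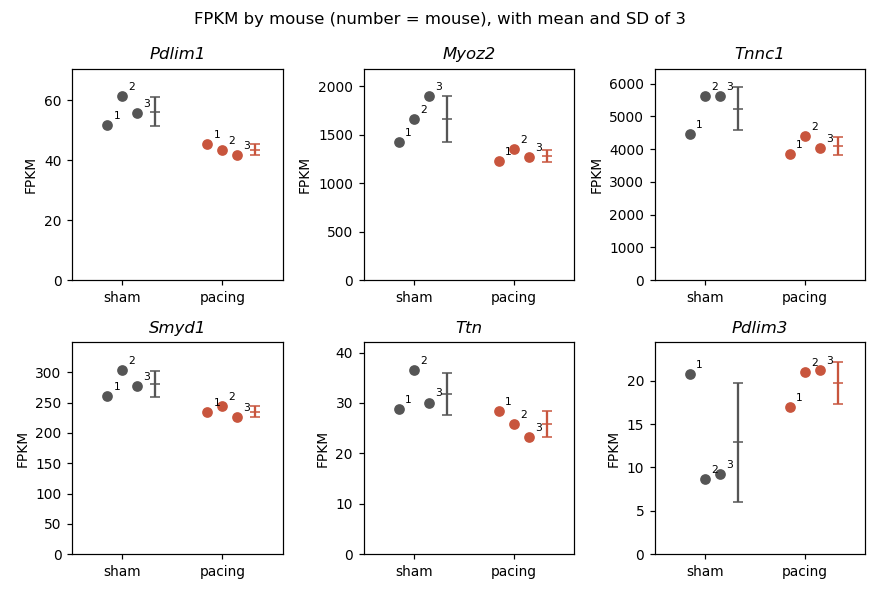
FPKM of 6 members in each mouse (points, numbered by mouse; axes from 0), with the mean and SD of the 3 mice of each group beside them. The first 5 genes have every paced mouse below every sham mouse, while Pdlim3 is high in sham 1 and in the paced mice.

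Of the Z-disc genes 10 of 13 lay lower and 3 higher, with a median of -0.10 and a range from -0.36 to 0.68. The top of that range is Pdlim3 alone, and the next highest was Myot at 0.17. Relative to the reference genes Myoz2 and Pdlim1 alone stayed negative among the 13, and the median was 0.10. Pdlim1, a PDZ and LIM scaffold that binds alpha-actinin, had the smallest p of the 37 members. It stood at 51.65, 61.35 and 55.58 FPKM in sham and 45.38, 43.4 and 41.75 in paced mice, with separate groups. The means were 56.19 ± 4.88 and 43.51 ± 1.82 (SD, n = 3 each; log2 fold change -0.36, SE 0.09). In limma the unadjusted p was 0.00292 and the adjusted p 0.39. Across the alternatives its log2 fold change ranged from -0.42 to -0.16 and its adjusted p from 0.0902 to 1, so that it passed under none of them. In the deposited tables Pdlim1 lies on chromosome 19 from 40222239 to 40271616 (mm10).

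Myoz2, calsarcin 1, which tethers calcineurin to alpha-actinin, stood at 1424, 1663 and 1897 FPKM in sham and 1226, 1349 and 1274 in paced mice. The groups were separate, and stayed so after rescaling to the same sum and relative to the reference genes (log2 fold change -0.36, SE 0.12, limma adjusted p = 0.477). It lies on chromosome 3 from 123006206 to 123034987. Pdlim5, another PDZ and LIM protein, stood at 367, 442 and 364.4 in sham and 347.9, 360.6 and 332.2 in paced mice, where the groups were separate by less than 4 units (log2 fold change -0.17, SE 0.10, limma adjusted p = 0.674). Relative to the reference genes its sign turned (0.03), and its groups overlapped on that scale and after rescaling to the same sum.

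Pdlim3, which encodes ALP, an actinin-associated LIM protein, was the member the authors' deposited table called higher, with a log2 fold change of 0.62 and a q of 0.00834. By mouse it stood at 20.77 (sham 1), 8.619 (sham 2) and 9.255 FPKM (sham 3), against 17.0, 21.03 and 21.23 in the paced mice. Sham 1 was as high as the paced mice, so that the groups overlapped, and the SD was 6.84 around a sham mean of 12.88 against 2.38 around 19.75 in pacing. In limma the log2 fold change was 0.68 (SE 0.28, unadjusted p = 0.0394, adjusted p = 0.552). Without sham 1, the only sham mouse within the paced range, it was 1.06 with an adjusted p of 0.0109 in limma. That run called 99 of all genes higher, against 0 with all mice. With each mouse left out in turn, the log2 fold change of Pdlim3 ranged from 0.47 to 1.06. The ratio of Pdlim3 to Pdlim1 was 0.402 (sham 1), 0.141 (sham 2) and 0.167 (sham 3), against 0.375, 0.485 and 0.508 in the paced mice. The atrial light chain Myl7 was also higher in sham 1 and the paced mice than in sham 2 and 3, at 10.04% (sham 1), 0.0877% (sham 2) and 2.45% (sham 3) of the FPKM of Myl2, against 4.48%, 13.7% and 8.86% in the paced mice. Of the smooth muscle genes, Tagln stood at 48.44, 25.62 and 34.34 in sham and 83.67, 59.92 and 76.61 in paced mice, with sham 1 below every paced mouse. Acta2 stood at 70.6, 31.6 and 35.53 and at 87.87, 61.68 and 83.98, with sham 1 inside the paced range. Cnn1 stood at 5.698, 0.9744 and 1.751 and at 10.06, 5.812 and 7.398, with sham 1 just below pacing 2. Sham 1 stood near or among the paced mice in Col1a1, a fibroblast collagen, at 27.79, 13.7 and 13.48 in sham and 25.87, 25.25 and 29.42 in paced mice. The same held for Vim, a mesenchymal filament protein, at 287, 146.4 and 181 and at 272.6, 290.4 and 321.9. Adipoq, an adipocyte hormone, stood at 27.03, 2.141 and 1.942 and at 72.82, 36.23 and 28.65. Other genes of these lists did not share the pattern of Pdlim3. Smooth muscle Myh11 stood at 10.47, 10.31 and 9.315 in sham and 21.48, 13.22 and 17.8 in paced mice, and Smtn at 46.89, 42.7 and 40.04 and at 38.03, 42.61 and 38.92. Adipocyte Fabp4 stood at 1715, 1648 and 1581 and at 1951, 1630.2 and 1502. The part of these tissues in the level of Pdlim3 was not tested. The gene lies on chromosome 8 from 45885485 to 45919546.

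Of the other Z-disc genes, Synpo2l, an actinin-binding protein of the CHAP family, was the steadiest, at 28.48, 28.07 and 28.54 FPKM in sham and 29.14, 29.98 and 29.26 in paced mice. All paced mice lay above all sham mice, but the difference was small (log2 fold change 0.05, SE 0.07, limma adjusted p = 0.864). Myot, myotilin, was the least abundant member of the Z-disc and stood at 9.163, 16.95 and 17.26 in sham and 16.19, 18.97 and 12.71 in paced mice. The low sham 1 value set its direction, since its log2 fold change of 0.17 was -0.11 without sham 1. Actn2, the alpha-actinin that cross-links actin of neighbouring sarcomeres, had means of 656.8 ± 76.8 and 600.8 ± 45.7, and Ldb3 (ZASP or cypher) of 549.7 ± 35.6 and 508.1 ± 44.9 (SD, n = 3 each). Mypn, Palld, Flnc, Sorbs2 and Cmya5 had log2 fold changes between -0.12 and -0.02 with overlapping groups, and those of Mypn, Flnc and Cmya5 were positive after rescaling to the same sum and without sham 2 or pacing 3.

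**Figure D5:**
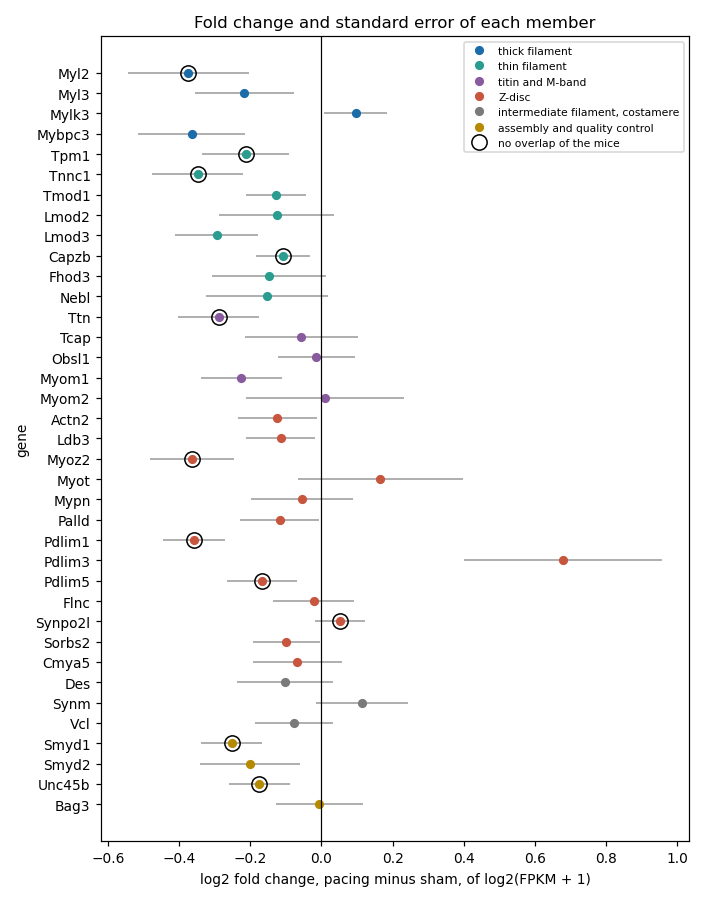
Log2 fold change (pacing minus sham of log2(FPKM + 1)) of each member with its standard error from limma, coloured by role; rings mark members whose 3 paced and 3 sham mice do not overlap. Of 11 rings, 10 lie below 0, and Synpo2l is the ring above it; relative to the cardiomyocyte reference genes 3 members were separate below and 4 above.

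Genes of the desmin network and the costamere stayed close to sham. Des, desmin, stood at 543.7, 721.2 and 765.7 FPKM in sham and 639.9, 658.9 and 574.4 in paced mice, with the paced mice inside the sham range. Vcl, vinculin, had means of 30.94 ± 4.49 and 29.11 ± 1.54. Synm, synemin, was the least abundant of all 37, at 2.829, 2.292 and 2.459 in sham and 2.475, 2.659 and 3.346 in paced mice (log2 fold change 0.11, SE 0.13, limma adjusted p = 0.839).

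The 4 genes for assembly and quality control had a median of -0.19. Smyd1, a methyltransferase needed for myofibril assembly, stood at 260.9, 303.5 and 277.5 FPKM in sham and 234.5, 244.5 and 226.4 in paced mice. The groups were separate, and the means were 280.6 ± 21.4 and 235.1 ± 9.04 (SD, n = 3 each; log2 fold change -0.25, SE 0.09, limma adjusted p = 0.484). They stayed separate after rescaling to the same sum but overlapped relative to the reference genes (log2 fold change -0.06). Unc45b, the myosin chaperone, stood at 69.66, 82.74 and 71.65 in sham and 64.84, 66.45 and 66.27 in paced mice, also with separate groups (log2 fold change -0.18, SE 0.09, limma adjusted p = 0.619). Relative to the reference genes its sign turned (0.02), and its groups overlapped on that scale and after rescaling to the same sum. Smyd2 had means of 97.88 ± 17.4 and 84.37 ± 8.87. Bag3, a co-chaperone that clears damaged filamin, stood at 57.53, 74.41 and 71.49 in sham and 76.15, 65.4 and 60.68 in paced mice, with a log2 fold change of -0.01.

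A list of 68 further sarcomere, Z-disc and muscle cytoskeleton genes gave a more even picture: of 64 tested, 30 had a positive and 34 a negative log2 fold change, with a median of -0.02. The list is mixed, since it also holds genes of smooth muscle and of other cells. The cardiomyocyte reference genes within it, Myh6, Actc1, Tnnt2 and Tnni3, were negative like the members (-0.18, -0.38, -0.02 and -0.19). At an unadjusted p under 0.05, 9 were higher and 5 lower, and 0 passed after adjustment in limma. Lower with separate groups were Actc1, cardiac actin, at 7976, 7527 and 7767 FPKM in sham and 5272, 6724 and 5995 in paced mice, and Sgcd, delta-sarcoglycan, at 23.47, 29.1 and 23.78 and at 19.48, 19.17 and 18.85. Fhl2, a LIM protein of titin, stood at 1526, 1864 and 1679 and at 1427, 1384 and 1147. Higher with separate groups were Fhl1, at 70.47, 63.34 and 61.77 in sham and 78.45, 86.18 and 78.48 in paced mice, and the focal adhesion gene Zyx, at 27.58, 20.44 and 21.38 and at 35.17, 31.09 and 34.42. Hsp90aa1, whose product folds myosin together with Unc45b, stood at 57.13, 54.2 and 51.04 and at 72.04, 63.46 and 68.84. Tpm2, beta-tropomyosin, stood at 25.09, 12.22 and 20 and at 28.87, 30.31 and 33.18, and Lmod1, given above, had the smallest p of these genes (log2 fold change 0.74, SE 0.13, limma adjusted p = 0.287). Both are also smooth muscle genes. Myh7, the slow myosin heavy chain, stood at 8.443, 19.52 and 16.29 and at 25.56, 18.68 and 30.81, with overlap. Murc lay lower (log2 fold change -0.33) with separate groups.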

How the data were processed

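Polyadenylated RNA of 6 ventricles went into stranded libraries, read from both ends over 151 bases (the labels' protocols). The authors deposited FPKM per gene and mouse, with many values at a floor of 0.01, and a comparison table with FPKM per group, a log2 fold change, a call and its q-value, per the file headers. Build mm10 and the tools Cuffdiff, Cufflinks, Bowtie2 2.2.6, TopHat2 2.1.0 and FastQC 1.0.0 come from the submitters' processing notes. For the annotation, the settings and the use of strand, the answer is not given in the sources used here. Where the mean FPKM reached 1, limma 3.58.1 under R 4.3.3 was fitted to log2(FPKM + 1) (group as the term, eBayes with a trend, two-sided) and adjusted over 11994 genes by Benjamini-Hochberg; the script was tested on simulated data. All 37 members passed this filter. Count models were not used on FPKM.

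Depth came from the steps of the lowest values of 644 genes with 1 exon. Starts in the deposited tables count from 0 (8545 of the starts with a RefSeq end are 1 lower than in RefSeq, 252 are equal) and are printed counted from 1. The strand column reads plus in all 24238 rows used and was not used; 1 row with a failed estimate was left out. Tmod1, Fhod3, Nebl, Sorbs2, Cmya5, Des and Unc45b lie in a listed locus that other genes share, so their fragments could be split between genes, and antisense overlaps were not separated.

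The members and lists were chosen with earlier results of these data known. Values by mouse are given for members with the highest or lowest level or the largest log2 fold change of a role, an unadjusted p under 0.05, a call by the authors' table or separate groups, and for up to 10 further sarcomere genes by p. Any further gene named was picked with its values known. Alternatives were pseudocounts, filters, scalings, variance models, a replicate block, each mouse left out, pacing 2 and 3 left out, and other thresholds.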

Additional observations from a re-analysis of the deposited data

How the results depend on the processing

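Members called at an adjusted p stayed at 0 in both directions under every alternative, except 1 higher (Pdlim3, limma adjusted p = 0.0109) without sham 1. Relative to the cardiomyocyte reference genes the members' median was 0.072, and by role it was -0.094 (thick filament), 0.046 (thin filament), 0.14 (titin and M-band), 0.098 (Z-disc), 0.12 (intermediate filament and costamere) and 0.0083 (assembly). There 12 members were negative, and 3 were higher and 0 lower at an unadjusted p (2215 and 12 of all genes). On that scale 4 members were separate higher and 3 lower, 15 other sarcomere genes were higher and 0 lower, and 2 genes were called. There 19 signs turned, those of Bag3 (0.19), Capzb (0.087), Des (0.093), Nebl (0.043), Obsl1 (0.18), Pdlim5 (0.029), Tcap (0.14) and Unc45b (0.021), and of Tmod1, Lmod2, Fhod3, Actn2, Ldb3, Mypn, Palld, Flnc, Sorbs2, Cmya5 and Vcl (0.049 to 0.174). This centring adds the same amount to every log2 fold change by construction, and the amount is positive because all 10 reference genes were negative on the deposited scale. Myh6, Actc1, Tnnt2 and Tnni3 are in both the reference list and the list of other sarcomere genes. The counts of higher and lower genes there thus follow from the choice of reference. After rescaling to the same sum 2 members were higher at an unadjusted p (969 of all genes), and 2 were separate higher and 4 lower. There 6 signs turned: Bag3 (0.071), Obsl1 (0.058), Tcap (0.022), Mypn (0.020), Flnc (0.052) and Cmya5 (0.0092). With quantile normalization the thick filament median was -0.029, 2 members were higher at an unadjusted p (537 of all genes), and Bag3 (0.013) and Tcap (0.057) turned. It fixes the top ranks, so Myl2 and Tpm1 change by 0 in it. With centring on medians 0 members were separate higher and Myom2 turned (-0.015). Robust eBayes left 0 members higher at an unadjusted p (557 of all genes) and called 1 gene. Without a filter 3 members and 2 other sarcomere genes were lower at an unadjusted p, where 603 of all rows were, and 6 genes were called higher. For separate groups under these scalings, the share over all genes was not counted.

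Without pacing 2 and pacing 3, the libraries with lung transcripts, the members' median was -0.10 with 25 negative, and the Z-disc median was 0.038. Counts by p or by separate groups are not given there, since a lone paced mouse falls outside the sham range more easily. There 8 signs turned: Bag3 (0.17), Obsl1 (0.039), Fhod3 (0.075), Mypn (0.0997), Palld (0.091), Flnc (0.071), Cmya5 (0.057) and Synm (-0.018). The lone paced mouse is then assumed to vary like the sham mice. With each mouse left out in turn, genes called ranged from 0 to 99 higher and 0 to 1 lower, and members called from 0 to 1 higher. Members at an unadjusted p ranged from 0 to 1 higher and 2 to 16 lower, where all genes ranged from 412 to 994 higher and 295 to 733 lower. Separate members ranged from 1 to 3 higher and 10 to 19 lower, though groups separate more easily with a mouse left out. Other sarcomere genes at an unadjusted p ranged from 2 to 11 lower. Without sham 1 there were 99 genes called higher and 1 lower, 16 members lower at an unadjusted p (733 of all genes) and 19 separate lower, and without pacing 1 there were 7 genes called higher and 1 lower. Medians ranged from -0.21 to -0.063 (members), -0.42 to -0.19 (thick filament), -0.29 to -0.11 (thin filament), -0.27 to -0.016 (titin and M-band), -0.18 to -0.012 (Z-disc) and -0.26 to -0.12 (assembly), each lowest without sham 1 and highest without sham 2, and from -0.12 to 0.034 (intermediate filament and costamere), highest without sham 2. Among the genes given by mouse, leaving out 1 mouse turned Bag3 (up to 0.066), Myot (-0.11 to 0.31), Nebl (-0.31 to 0.013), Obsl1 (-0.082 to 0.080) and Tcap (-0.19 to 0.101). It also turned Lmod2 (0.015), Fhod3 (0.016) and Vcl (0.034) without sham 2, Mypn, Flnc and Cmya5 without sham 2 (0.063, 0.087 and 0.032) and without pacing 3 (0.046, 0.045 and 0.014), and Myom2 without sham 1 (-0.27) and without pacing 1 (-0.084). The labels state no pairing of the mice. Same-numbered deviations correlated at -0.125, -0.022 and -0.02, and those of unlike numbers between -0.1 and 0.113, so these values cannot decide whether mice were handled in pairs. A replicate block gave 1 member higher and 6 lower at an unadjusted p, where 592 of all genes were higher and 315 lower. It gave 3 other sarcomere genes lower and 7 genes called higher. For these changes the cause was not tested.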

Other observations

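Ratios between related members were as follows. The FPKM of Tpm1 was 2.64, 2.40 and 2.51 times that of Tnnc1 in sham and 2.98, 2.46 and 2.87 times in paced mice, so that the groups overlapped. Myom2 was 0.79, 1.2 and 1.08 times Myom1 in sham and 1.36, 1.02 and 1.195 times in paced mice, again with overlap. Lmod2 was 6.16, 7.38 and 6.61 times Lmod3 in sham and 7.02, 8.12 and 7.55 times in paced mice, where sham 2 overlapped with the paced range. Mybphl, which encodes a relative of myosin binding protein C found in atrium, stood at 151.9, 1.599 and 62.42 FPKM in sham and 81.08, 246.6 and 165.5 in paced mice. Sham 2 had by far the lowest of these values, as it had for Myl7.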
